A study of Mus musculus with 18 samples.

Results

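Glycolysis and the transcriptional response to low oxygen were followed in mouse mammary tumors through 31 named genes, of 57126 genes in the count table. They were taken by name. Of these, 22 are glycolytic genes: glucose transporters, the enzymes from hexokinase to pyruvate kinase, the kinases that set the level of the activator of phosphofructokinase, and genes that decide the fate of pyruvate. The other 9 are hypoxia genes, made up of 2 alpha subunits of the hypoxia-inducible factors (HIF) and 7 genes that HIF is known to induce. All 31 passed the filter on low counts in each of the 3 comparisons, so no member was left out of a test.

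Bulk RNA-seq had been done on 18 tumors of mice injected in the mammary duct with an adenovirus carrying Cre recombinase (Ad-Cre), which acts in the ductal epithelial cells it enters. There were 7 MaP R172H/- tumors, whose epithelial cells carry the missense allele Trp53 R172H over a null allele, 5 MaP R245W/- tumors with the allele Trp53 R245W over a null allele, and 6 MaP -/- tumors with Trp53 lost on both alleles. Stroma and immune cells keep wild-type Trp53 in every group. The animals were adult F1 females of a BALB/c by C57BL/6J cross, and 3 of the MaP R172H/- and 3 of the MaP R245W/- tumors also carried the Cre reporter Rosa26 LSL-TdTomato. The MaP -/- tumors came from 4 mice, 2 of which gave 2 tumors each. Each other tumor was from a mouse of its own. Tumor names follow the labels, which have JM779-T1 and JM836-T1 where the study's list of tumors marks tumor T2 of each mouse as sequenced, so which tumor of these mice was measured is uncertain. The MaP R172H/- libraries were sequenced on an Illumina HiSeq with shorter read pairs, and those of both other groups on an Illumina NovaSeq, so genotype, instrument and read length cannot be told apart where MaP R172H/- tumors are compared. Tumor subtype divides the same way, since the study typed the MaP R172H/- tumors as luminal B or HER2-enriched and the others as triple negative. Histology divides in part the same way. The study classed all 7 MaP R172H/- tumors as nonmetaplastic adenocarcinomas, and both other groups held metaplastic as well as nonmetaplastic tumors.

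Total counts ran from 23113578 to 37365062 per tumor. Trp53 itself, measured over all its exons and so not a test of each allele, was at 10.8 to 50.3 CPM (counts scaled to a common library size, with TMM factors) in MaP R172H/-, at 9.09 to 59.0 in MaP R245W/- and at 9.43 to 21.6 in MaP -/- tumors, where RNA of wild-type cells may be part of it. Of the tumors with a missense allele, YZ11 (10.8 CPM), JM1233 (11.4) and RM0014 (9.09) lay within or below the MaP -/- range of Trp53. Epithelial markers fixed for the check had sums from 174 CPM in JM779-T1, 390 in YZ7 and 506 in JM1233 to 11818 in YZ11. Skeletal muscle markers summed to 1585 CPM in JM1233, 251 in JM1133 and 63.9 in JM1126, all MaP R245W/-, against 7.83 to 32.5 in the other 15 tumors. Of the 14 muscle markers, 2 were at 1 CPM or more in every MaP R245W/- tumor, 1 in every MaP R172H/- and 0 in every MaP -/- tumor, and Tnnc2 was at 0 in all MaP R172H/- tumors. Adipocyte markers summed to 3900 CPM in JM833-T1. In bulk tissue, fewer cells of a type and less RNA per cell cannot be told apart.

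Glycolysis splits glucose into pyruvate in the cytosol, and many tumors run it fast even where oxygen is at hand, giving off lactate. Under low oxygen the prolyl hydroxylases that mark HIF alpha subunits for breakdown slow down, the subunits join ARNT, and the pair binds the core letters RCGTG near its target genes. Most glycolytic enzymes are among these targets, so both groups of genes often move together in hypoxic tumor tissue. HIF alpha is controlled mainly as a protein, and a transcript level of Hif1a or Epas1 is not a measure of HIF activity.

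The start regions of 6 members are shown because these are hypoxia members, or members that differed between genotypes, whose window of 300 bases upstream of the start site holds the HIF core. They are the 6 of this kind with the largest spread over the 18 tumors. Windows lie directly before the start of the Ensembl canonical transcript in GRCm39 (GENCODE M39). They run 5′ to 3′ on the strand of the gene, and capitals mark ACGTG or GCGTG as read on either strand (CACGT or CACGC on the other). Pgk1 (phosphoglycerate kinase) lies on the plus strand with its window at chrX:105230406-105230705. Pgam1 (phosphoglycerate mutase) is at chr19:41900041-41900340, plus strand, and Epas1 (a HIF alpha subunit) at chr17:87060823-87061122, plus strand. Bnip3, a mitochondrial receptor of mitophagy, is at chr7:138511254-138511553, minus strand. Adm (adrenomedullin, a vasodilator peptide) is at chr7:110226558-110226857, plus strand, and Ankrd37 (ankyrin repeat domain 37) at chr8:46452906-46453205, minus strand.
Pgk1: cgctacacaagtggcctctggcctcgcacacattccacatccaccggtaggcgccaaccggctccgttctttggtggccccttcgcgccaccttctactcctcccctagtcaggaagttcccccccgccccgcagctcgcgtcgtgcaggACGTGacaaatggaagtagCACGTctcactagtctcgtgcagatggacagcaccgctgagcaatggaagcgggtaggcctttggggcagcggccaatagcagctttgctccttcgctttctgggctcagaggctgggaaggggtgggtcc
Pgam1: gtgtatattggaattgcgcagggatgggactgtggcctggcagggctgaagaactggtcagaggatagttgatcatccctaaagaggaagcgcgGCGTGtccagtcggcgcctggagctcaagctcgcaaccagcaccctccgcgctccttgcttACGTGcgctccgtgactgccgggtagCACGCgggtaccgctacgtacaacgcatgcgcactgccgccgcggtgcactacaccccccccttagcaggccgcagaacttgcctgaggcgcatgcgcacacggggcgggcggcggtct
Epas1: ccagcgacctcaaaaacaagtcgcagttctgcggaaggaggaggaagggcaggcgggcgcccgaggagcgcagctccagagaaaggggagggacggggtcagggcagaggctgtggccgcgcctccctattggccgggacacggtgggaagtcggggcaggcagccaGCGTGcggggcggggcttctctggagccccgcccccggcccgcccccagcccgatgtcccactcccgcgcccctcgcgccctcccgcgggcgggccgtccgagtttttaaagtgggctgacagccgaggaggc
Bnip3: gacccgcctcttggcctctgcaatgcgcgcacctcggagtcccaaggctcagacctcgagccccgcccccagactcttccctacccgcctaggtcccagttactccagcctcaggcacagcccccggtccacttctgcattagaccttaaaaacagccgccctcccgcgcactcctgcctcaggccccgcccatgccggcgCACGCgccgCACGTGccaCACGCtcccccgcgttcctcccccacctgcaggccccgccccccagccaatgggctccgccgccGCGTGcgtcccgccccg
Adm: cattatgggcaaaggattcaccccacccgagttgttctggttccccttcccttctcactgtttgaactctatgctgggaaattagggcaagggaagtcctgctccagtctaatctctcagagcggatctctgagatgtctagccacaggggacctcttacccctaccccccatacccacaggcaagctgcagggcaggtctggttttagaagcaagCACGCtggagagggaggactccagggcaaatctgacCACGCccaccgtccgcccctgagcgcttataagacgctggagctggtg
Ankrd37: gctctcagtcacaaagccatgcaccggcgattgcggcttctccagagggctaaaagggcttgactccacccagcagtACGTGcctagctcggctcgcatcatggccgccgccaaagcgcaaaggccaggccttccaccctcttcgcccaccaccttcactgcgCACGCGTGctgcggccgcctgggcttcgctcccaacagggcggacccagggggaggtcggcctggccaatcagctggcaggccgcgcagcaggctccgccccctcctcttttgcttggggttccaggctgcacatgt
In Pgk1 the matches begin 150 and 131 bases before the start site, on opposite strands. Bnip3 has its matches between 99 and 17 bases before the start, and 2 of them are the same CACGTG palindrome read on both strands. ACGTG or GCGTG was found in 21 of the 31 member windows (67.7%), in 13 of 22 glycolytic and in 8 of 9 hypoxia windows, against 9545 of 21178 windows of all protein-coding genes (45.1%). With ACGTG alone the shares were 12 of 31 against 19.7% of all windows. Car9 was the 1 hypoxia member without a match in its window. These are matches of 5 letters and not binding sites, and no binding was measured.

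Per length of transcript, the most abundant member over all tumors was Pkm (pyruvate kinase, muscle type), with a median level of 869 CPM per kilobase. Aldoa (aldolase A) followed at 580, Ldha (lactate dehydrogenase A) at 384, Tpi1 (triosephosphate isomerase) at 293 and Gpi1 (glucose-6-phosphate isomerase) at 145 CPM per kilobase. At the other end stood Eno2 (enolase 2, the neuronal form) at 3.21, Car9 (carbonic anhydrase 9, which acidifies the tissue around hypoxic cells) at 2.99 and Slc2a3 (the glucose transporter GLUT3) at 1.71 CPM per kilobase. The ranges over tumors overlapped between most neighbours in this order. Of the 2 HIF alpha subunits, Hif1a had a median of 22.8 and Epas1 of 7.71 CPM per kilobase.

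**Figure D1:**
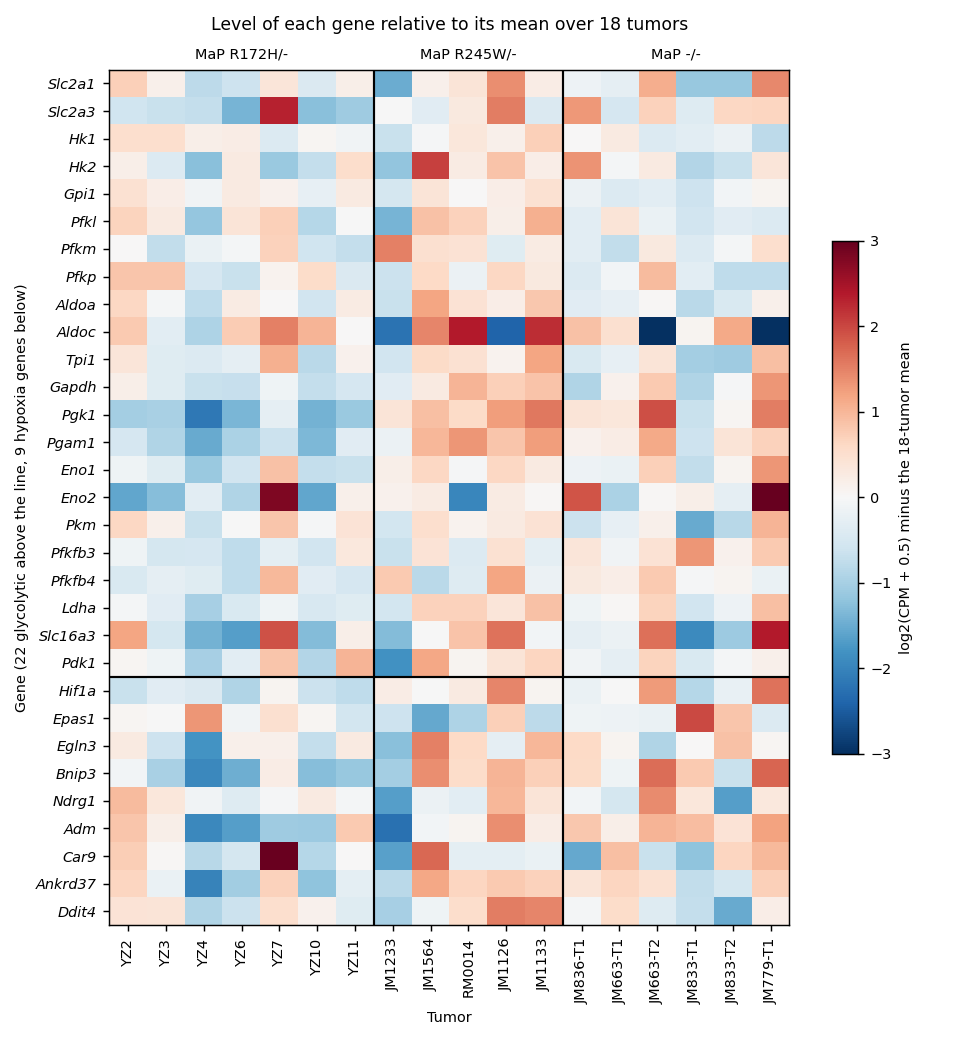
Level of the 31 genes (rows, 22 glycolytic above the line and 9 hypoxia genes below) in 18 tumors (columns, by genotype), as log2(CPM + 0.5) minus the mean of the gene over all tumors, with the color scale ending at 3 in either direction. Pgk1 and Pgam1 are low across the MaP R172H/- columns, while YZ7, JM779-T1 and JM1133 are among the 3 highest tumors for 11, 11 and 10 of the glycolytic genes.

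Comparing MaP R172H/- with MaP -/- tumors asks how tumors with the R172H protein differ from tumors without p53. Among the later enzymes of glycolysis 2 were called lower, Pgk1 by 1.97 and Pgam1 by 1.25 on the log2 scale. Pfkfb3 (a kinase that makes the sugar phosphate activating phosphofructokinase) and Bnip3 were called lower as well. No member was called higher, while 11 of 31 had a log2 fold change above 0. The members called lower were thus 4 of 31 (12.9%) at a false discovery rate (FDR) below 0.05 in edgeR, where 4.73% of the 20954 genes tested were called lower and 3.67% higher. The median log2 fold change was -0.30 for the 22 glycolytic members and -0.38 for the 9 hypoxia members, beside 0.0027 for all genes tested. With limma-voom and the mouse as a random block 2 of the 4 remained (Pgk1 and Pgam1), and with a skeletal muscle covariate none did, with FDR values from 0.141 to 0.323 and a glycolytic median of 0.24. The log2 fold changes with that covariate were -1.53 for Pgk1, -1.06 for Pgam1, -0.93 for Pfkfb3 and -1.25 for Bnip3. The covariate was the mean log2 CPM of the 14 muscle markers, not their sum. Of these markers 2 were under 1 CPM in every MaP R172H/- tumor and 5 in every MaP -/- tumor. Muscle marker sums overlapped between these groups, at 12.3 to 32.5 CPM in MaP R172H/- and 7.83 to 26.1 CPM in MaP -/- tumors. Other cell markers also stood at different levels, with ranges that overlapped: epithelial markers summed to a median of 4746 CPM in MaP R172H/- and 2176 CPM in MaP -/- tumors, and neutrophil markers ran from 7.79 to 88.5 CPM in MaP R172H/- and from 47.3 to 767 CPM in MaP -/- tumors. Their part in the result was not tested. Leaving out any 1 of YZ3, YZ4, YZ6, YZ10, JM663-T2 or JM779-T1 left 2 calls, Pgk1 and Pgam1, and without JM779-T1 the glycolytic median was 0.11.

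Pgk1 catalyses the first step of glycolysis that yields ATP. It was at 18.8, 38.9 and 70.0 CPM (lowest, median, highest) in the 7 MaP R172H/- tumors. In MaP R245W/- it was at 111 (JM1233), 157 (JM1564), 125 (RM0014), 201 (JM1126) and 255 (JM1133). In the 6 MaP -/- tumors it was at 52.4, 109 and 324. Only YZ7 among the R172H tumors reached above the lowest MaP -/- tumor, JM833-T1, and no MaP R172H/- tumor overlapped the MaP R245W/- group. The fall against MaP -/- was 3.91-fold (log2 -1.97 ± 0.41 SE, FDR = 0.0104, edgeR). Against MaP R245W/- it was 4.32-fold (log2 -2.11 ± 0.40 SE, FDR = 0.0024, edgeR).

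Pgam1, the next enzyme in the path, was at 16.6, 25.96 and 38.6 CPM in MaP R172H/- tumors. It reached 43.3 (JM1233), 98.2 (JM1564), 124 (RM0014), 86.8 (JM1126) and 117 (JM1133) in MaP R245W/-, and 31.2, 60.3 and 107 in MaP -/- tumors. The picture was that of Pgk1: only JM833-T1 of the MaP -/- tumors lay inside the range of the R172H group, and no MaP R245W/- tumor did. The log2 differences of MaP R172H/- were -1.25 ± 0.27 SE against MaP -/- (FDR = 0.0130, edgeR) and -1.79 ± 0.29 SE against MaP R245W/- (FDR = 0.00087, edgeR). Both genes stayed below the threshold in each fit that left out 1 tumor.

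Pfkfb3 was at 38.2, 45.4 and 81.3 CPM in MaP R172H/- tumors and at 60.3, 85.6 and 163 in MaP -/- tumors. MaP R245W/- tumors had 40.8 (JM1233), 86.9 (JM1564), 48.6 (RM0014), 88.8 (JM1126) and 52.7 (JM1133). All groups overlapped, with YZ11 the highest R172H tumor and JM833-T1, the tumor rich in adipocyte markers, the highest of all. The fall against MaP -/- was 1.82-fold (log2 -0.87 ± 0.24 SE, FDR = 0.0407, edgeR), and the call was lost in 10 of 13 fits that left out 1 tumor (FDR up to 0.0776) and in 3 of 10 alternative analyses. Pfkfb4, the other member of this enzyme family, was at 13.7 to 47.0 CPM in MaP R172H/- and 20.3 to 40.9 in MaP -/- tumors and was not called (log2 -0.34, FDR = 0.474, edgeR).

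Bnip3 was at 6.53, 11.8 and 30.6 CPM in MaP R172H/- tumors and at 16.5, 42.4 and 90.3 in MaP -/- tumors. In MaP R245W/- it was at 12.7 (JM1233), 70.0 (JM1564), 38.7 (RM0014), 53.6 (JM1126) and 43.6 (JM1133). In 5 of the 7 R172H tumors the level was below every MaP -/- tumor, while YZ2 and YZ7 lay within their range. The fall was 3.28-fold against MaP -/- (log2 -1.71 ± 0.45 SE, FDR = 0.0331, edgeR), a call lost in 7 of 13 fits with 1 tumor left out (FDR up to 0.0805). Against MaP R245W/- the difference was of like size but did not pass (log2 -1.52 ± 0.47 SE, FDR = 0.0507, edgeR), and it did pass with DESeq2 (FDR = 0.0192).

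**Figure D2:**
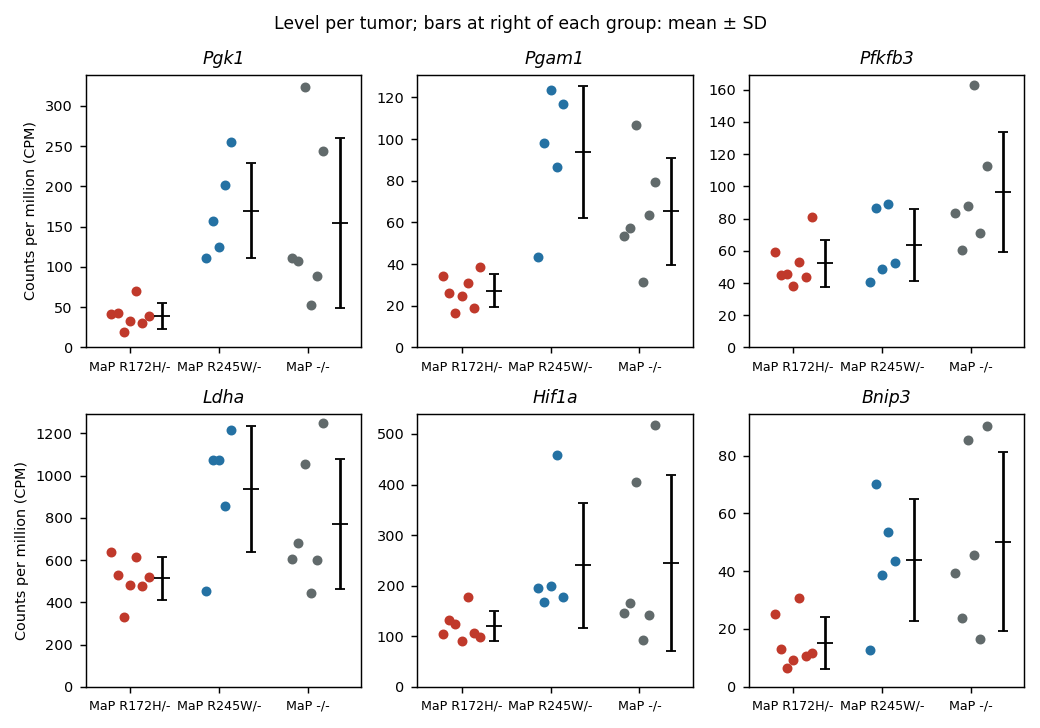
Levels in CPM of 6 genes in each of the 18 tumors (points, by genotype), with the mean and SD of each group as a bar at its right. For Pgk1 and Pgam1 the MaP R172H/- points (highest 70.0 and 38.6 CPM) lie below every MaP R245W/- point (lowest 111 and 43.3 CPM), while the groups overlap for Pfkfb3, Ldha, Hif1a and Bnip3.

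Among the hypoxia members, Hif1a and Adm came next after Bnip3 in this comparison, and neither passed the test. Hif1a encodes the HIF alpha subunit found in most cells. It was at 89.8, 107 and 178 CPM in MaP R172H/-, at 195 (JM1233), 167 (JM1564), 200.1 (RM0014), 459 (JM1126) and 178 (JM1133) in MaP R245W/-, and at 92.1, 156 and 518 in MaP -/- tumors. Apart from YZ7 the R172H tumors were at 133 CPM or less, whereas JM1126, JM663-T2 and JM779-T1 stood apart at 405 or more. The log2 difference was -1.03 ± 0.37 SE against MaP -/- (FDR = 0.106, edgeR) and -1.01 ± 0.38 SE against MaP R245W/- (FDR = 0.103, edgeR).

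Adm was at 4.24, 8.06 and 31.7 CPM in MaP R172H/-, at 3.31 (JM1233), 16.5 (JM1564), 18.6 (RM0014), 47.0 (JM1126) and 20.6 (JM1133) in MaP R245W/-, and at 19.7, 32.3 and 41.2 in MaP -/- tumors. The R172H group was split, with YZ4, YZ6, YZ7 and YZ10 at 8.06 or less and YZ2, YZ3 and YZ11 at 20.0 or more. Its log2 difference against MaP -/- was -0.99 ± 0.46 SE (FDR = 0.203, edgeR).

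The remaining hypoxia members gave no call in this comparison. Egln3 (PHD3, a prolyl hydroxylase that HIF itself induces) was at 10.9 to 47.5 CPM in MaP R172H/- and 20.7 to 72.3 in MaP -/- tumors (log2 -0.38). Ndrg1, a stress-induced gene, was at 112 to 282 against 46.5 to 396 CPM (log2 -0.04). Ankrd37 had a log2 difference of -0.52, Epas1 of -0.29, Ddit4 of 0.22 and Car9 of 0.78, with FDR values between 0.537 and 0.720 in edgeR.

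Among the earlier enzymes of glycolysis the differences ran the other way, without a call. Of 9 enzymes from hexokinase to triosephosphate isomerase, 7 had a log2 fold change above 0 in MaP R172H/- against MaP -/- tumors, with a median of 0.34, and the median was -0.76 for 6 enzymes from Gapdh to pyruvate kinase, of which 1, Pkm, was above 0. This division of the path was made after the values were seen and was not tested. Gpi1 had the smallest p of the earlier enzymes, at a mean of 452 ± 71.7 CPM (SD, n = 7) against 345 ± 60.0 (SD, n = 6), with an FDR of 0.138 in edgeR. Hk1, the housekeeping hexokinase, was 1.31-fold higher (FDR = 0.223, edgeR) and Hk2, the hexokinase that tumors often raise, was at 60.9 to 210.1 CPM against 79.2 to 371 (log2 -0.45, FDR = 0.495, edgeR). Log2 differences were 0.37 for Pfkl and 0.34 for Pfkp, the liver and platelet forms of phosphofructokinase, and 0.15 for Tpi1. Gapdh (-0.67), Eno1 (-0.58) and Ldha (-0.58) were below 0, with FDR values from 0.164 to 0.354 in edgeR.

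**Figure D3:**
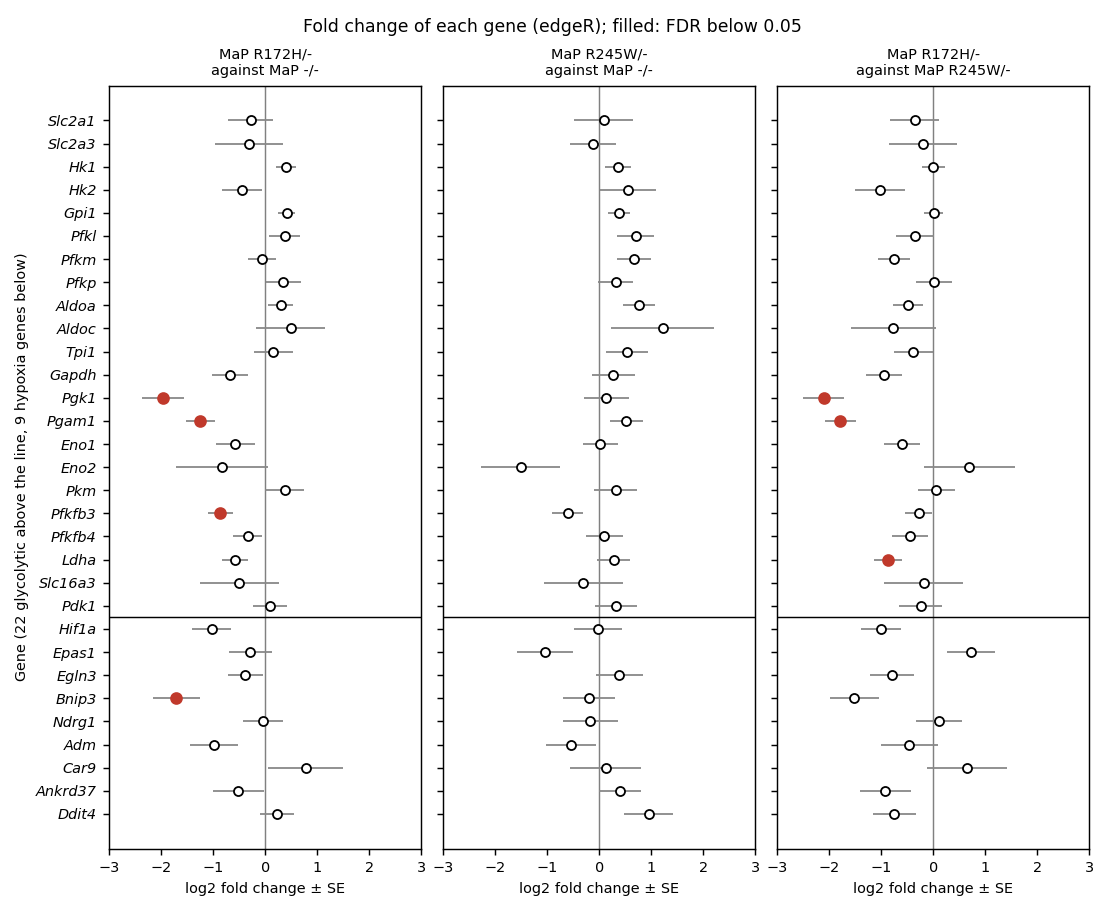
Log2 fold change with its standard error (bars) for each of the 31 genes in 3 comparisons, from edgeR; filled points passed an FDR of 0.05. The 4 calls of MaP R172H/- against MaP -/- and the 3 of MaP R172H/- against MaP R245W/- are all below 0, and no point is filled for MaP R245W/- against MaP -/-.

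Many of these transcripts have pseudogenes elsewhere in the genome, to which their reads can also align. Among these are processed pseudogenes, which are copies of the spliced message. Pseudogene copies of any type with at least 90% identity were found for 10 of the 31 members, 153 copies in all. Gapdh (glyceraldehyde-3-phosphate dehydrogenase) had 115, Ldha 13, Pkm 8, Pgk1 4, and Pgam1, Bnip3 and Aldoa 3 each. The closest copies of Pgk1 (over 1252 bases) and of Pgam1 (over 765 bases) were 100% identical to the message. Of the 4 members called lower against MaP -/-, Pfkfb3 was the 1 without a copy.

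The share of genes called lower in MaP R172H/- libraries was larger among genes with copies, a description that was not tested. Among protein-coding genes with 3 or more copies 58 of 311 (18.6%) were called lower against MaP -/-, beside 385 of 13025 (2.96%) of those without a copy. Against MaP R245W/- it was 113 of 315 (35.9%) beside 627 of 13515 (4.64%). In that comparison the median log2 fold change was -0.47 for genes with 3 or more copies and -0.05 for those with none. For MaP R245W/- against MaP -/-, groups on the same instrument, it was 0.30 beside 0.11. There 18.6% of genes with 3 or more copies were below 0, beside 38.9% of those with none. No gene at all was called in that comparison, so its shares called lower cannot be compared between copy classes. The copies of Pgk1 held 0.0411 to 0.318 CPM in MaP R172H/- and 0.432 to 2.08 CPM in MaP -/- tumors. Those of Gapdh held more, at 12.2% to 46.6% of the counts of Gapdh and its copies in MaP R172H/-, 5.26% to 23.1% in MaP R245W/- and 6.74% to 45.4% in MaP -/- tumors, so the level of Gapdh itself is uncertain. With the counts of copies added to their gene, the log2 fold changes against MaP -/- were -1.97 for Pgk1, -1.24 for Pgam1 and -1.70 for Bnip3. How many reads that align to several places were left out is not shown by a count table. Read length and genotype cannot be told apart here.

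**Figure D4:**
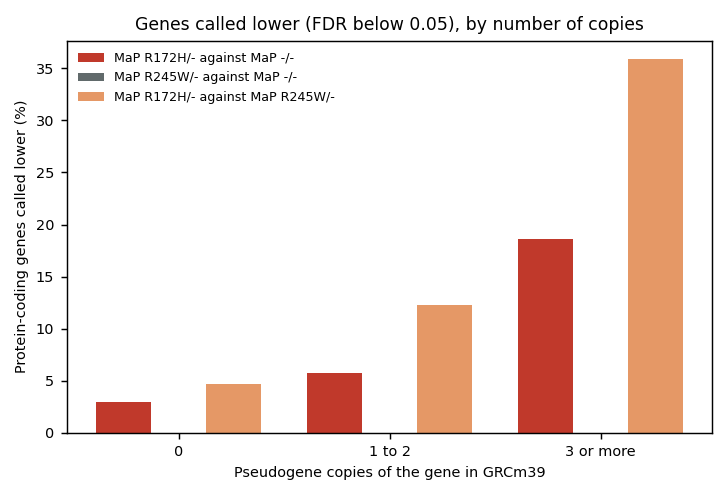
Share of protein-coding genes called lower at an FDR below 0.05 (bars, in percent) by the number of pseudogene copies of the gene, in 3 comparisons. For both comparisons of MaP R172H/- tumors the share rises with the number of copies. It goes from 2.96% to 18.6% against MaP -/- and from 4.64% to 35.9% against MaP R245W/-. For MaP R245W/- against MaP -/- no gene at all was called, so its shares cannot be compared between copy classes.

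Comparing MaP R245W/- with MaP -/- tumors asks the same of the R245W protein, with both groups on the same instrument. None of the 31 members was called by edgeR, where 0% of the 21452 genes tested were called higher and 0% lower. At an unadjusted p below 0.05 there were 2527 genes and 1 member, Aldoa, and DESeq2 called 132 genes higher and 203 lower, with no member among them. Of the 22 glycolytic members 18 had a log2 fold change above 0 (81.8%), with a median of 0.31. For all genes tested it was 51.8%, with a median of 0.02. Of protein-coding genes, 38.9% of those without a pseudogene copy and 25.6% of those with any were below 0. Their median log2 fold changes were 0.11 and 0.19. Of the 9 hypoxia members 4 were above 0, with a median of -0.03, which was 0.71 with the muscle covariate and ran from -0.31 to 0.33 with 1 tumor left out.

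Aldoa, which splits the sugar bisphosphate into trioses and is the aldolase of muscle and of most tumors, was at 549 (JM1233), 1986 (JM1564), 1171 (RM0014), 993 (JM1126) and 1511 (JM1133) CPM in MaP R245W/-. It was at 495, 709 and 959 in MaP -/- and at 515, 869.7 and 1343 in MaP R172H/- tumors. All MaP R245W/- tumors except JM1233 were above the highest MaP -/- tumor, JM779-T1. The log2 difference was 0.76 ± 0.31 SE (FDR = 0.384, edgeR).

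Pfkm, the muscle form of phosphofructokinase, was at 140.5 (JM1233), 68.2 (JM1564), 66.1 (RM0014), 37.6 (JM1126) and 58.0 (JM1133) CPM in MaP R245W/-, at 29.2, 42.6 and 68.9 in MaP -/- and at 29.0, 42.1 and 78.9 in MaP R172H/- tumors. JM1233, with the highest level by far, was also the tumor with the most skeletal muscle RNA. The log2 difference against MaP -/- was 0.67 ± 0.33 SE (FDR = 0.451, edgeR), and 0.20 with a skeletal muscle covariate.

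Pfkfb3 differed by -0.61 ± 0.30 SE on the log2 scale (FDR = 0.452, edgeR). Ddit4 (REDD1, an inhibitor of mTORC1 that low oxygen and other stresses induce) was at 30.0 (JM1233), 55.6 (JM1564), 88.6 (RM0014), 176 (JM1126) and 169.6 (JM1133) CPM in MaP R245W/-, at 21.0, 52.3 and 90.03 in MaP -/- and at 32.4, 66.1 and 86.6 in MaP R172H/- tumors. Only JM1126 and JM1133 stood above both other groups. Its log2 difference was 0.95 ± 0.47 SE (FDR = 0.451, edgeR).

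Epas1, the HIF alpha subunit typical of endothelium and fat, was at 29.7 (JM1233), 15.7 (JM1564), 24.2 (RM0014), 76.2 (JM1126) and 26.6 (JM1133) CPM in MaP R245W/-, at 34.7, 41.9 and 185 in MaP -/- and at 31.5, 48.3 and 116 in MaP R172H/- tumors. The 2 highest levels were in JM833-T1 and YZ4, which also had the highest adipocyte marker sums of their groups (3900 and 345 CPM). Endothelial markers summed to 822 CPM in JM1126 and 754 in JM833-T1, the highest sums, and to 207 in JM1564, the lowest; the part of fat and endothelium was not tested. In MaP R245W/- all tumors but JM1126 were below every MaP -/- tumor. The log2 difference was -1.05 ± 0.54 SE (FDR = 0.461, edgeR). Adm had a log2 difference of -0.54 ± 0.48 SE, which turned to 0.34 with the muscle covariate.

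The direct comparison of MaP R172H/- with MaP R245W/- tumors asks whether the missense alleles differ from each other, and was fitted with all 18 tumors. In it 3 of 31 members were called lower in MaP R172H/- (9.68%), Pgk1, Pgam1 and Ldha, and none higher. Of the 22481 genes tested 6.49% were called lower and 2.91% higher. All 3 have pseudogene copies. Without YZ7 the count was 6 and without JM779-T1 it was 5, and in the other fits that left out 1 tumor it was 2 to 4. The median log2 fold change was -0.37 for the glycolytic and -0.75 for the hypoxia members, beside 0.0028 for all genes tested. For protein-coding genes it was -0.05 without a pseudogene copy and -0.26 with any. Since MaP R172H/- tumors enter this and the first comparison, both share those samples.

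Ldha turns pyruvate into lactate and is the last enzyme of fermentative glycolysis. It was at 333, 519 and 638 CPM in MaP R172H/-, at 455 (JM1233), 1074 (JM1564), 1072 (RM0014), 858 (JM1126) and 1217 (JM1133) in MaP R245W/-, and at 445, 644 and 1247 in MaP -/- tumors. JM1233 was within the R172H range and the other 4 R245W tumors were above it. The fall was 1.82-fold (log2 -0.87 ± 0.27 SE, FDR = 0.0490, edgeR). That call was lost in 14 of 18 fits that left out 1 tumor (FDR up to 0.113) and in 6 of 10 alternative analyses (FDR up to 0.0959, without the filter on low counts).

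Gapdh was just outside, at 122 to 229.9 CPM in MaP R172H/- and 159 to 407 in MaP R245W/- tumors (log2 -0.95 ± 0.34 SE, FDR = 0.0891, edgeR). Ankrd37, a HIF-induced gene of few known functions, was at 0.828, 3.88 and 8.06 CPM in MaP R172H/-, at 2.54 (JM1233), 11.5 (JM1564), 7.83 (RM0014), 8.70 (JM1126) and 8.09 (JM1133) in MaP R245W/-, and at 2.71, 6.67 and 8.21 in MaP -/- tumors. The groups overlapped, with JM1233 and RM0014 below the highest R172H tumor, and the log2 difference was -0.92 ± 0.49 SE (FDR = 0.249, edgeR). Log2 differences of Hk2 (-1.02), Egln3 (-0.80), Pfkm (-0.76) and Ddit4 (-0.75) did not pass, with FDR values from 0.136 to 0.261. Enolase 1, the main enolase, differed by -0.60 (FDR = 0.287, edgeR).

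Aldoc, Eno2, Car9 and Slc16a3 also varied widely over the tumors, and their levels overlapped between all groups. Aldoc (aldolase C, the form of brain) had the widest range, 71.8-fold from lowest to highest. It was at 85.5, 277 and 466.3 CPM in MaP R172H/-, at 34.4 (JM1233), 447 (JM1564), 849 (RM0014), 30.2 (JM1126) and 756 (JM1133) in MaP R245W/-, and at 11.8, 199 and 358 in MaP -/- tumors. JM1233, JM1126, JM663-T2 and JM779-T1 were at 34.4 CPM or less and every other tumor at 85.5 or more. Per length, Aldoc made up 0.665% to 28.2% of both aldolases.

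Eno2 was at 2.63, 4.42 and 63.7 CPM in MaP R172H/-, at 9.61 (JM1233), 10.4 (JM1564), 1.89 (RM0014), 10.4 (JM1126) and 8.97 (JM1133) in MaP R245W/-, and at 4.29, 9.42 and 77.4 in MaP -/- tumors. YZ7 and JM779-T1, the tumors lowest in epithelial markers, were highest. Car9 was at 3.78, 7.31 and 59.5 CPM in MaP R172H/-, at 2.0 (JM1233), 25.1 (JM1564), 5.82 (RM0014), 5.82 (JM1126) and 6.26 (JM1133) in MaP R245W/-, and at 2.18, 7.998 and 14.8 in MaP -/- tumors, so that YZ7 and JM1564 stood out. Slc16a3 (the lactate exporter MCT4) was at 14.4, 32.0 and 174 CPM in MaP R172H/-, at 18.4 (JM1233), 45.7 (JM1564), 83.8 (RM0014), 144 (JM1126) and 43.9 (JM1133) in MaP R245W/-, and at 11.9, 39.4 and 242 in MaP -/- tumors. It was at 106 CPM or more in YZ2, YZ7, JM1126, JM663-T2 and JM779-T1.

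The glucose transporters showed the same tumors. Slc2a1 (GLUT1, the basal transporter that HIF induces) ran from 33.6 CPM in JM1233 to 259.6 in JM779-T1, and the next highest were JM1126 and JM663-T2. Slc2a3 was at 46.1 CPM in YZ7 and at 3.05 to 26.5 in the other tumors. Pdk1, a kinase that inhibits pyruvate dehydrogenase, ran from 25.2 in JM1233 to 201 CPM in JM1564, and Pkm from 685 in JM833-T1 to 3941 in JM779-T1. None of these 4 was called in any comparison.

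Tumors of 1 mouse could differ. In mouse JM663, tumor T1 had Aldoc at 227 and Slc16a3 at 40.7 CPM, and tumor T2 had them at 18.4 and 145 CPM. Bnip3 was at 23.9 and 85.6 CPM in this pair, and Hif1a at 166 and 405. In mouse JM833, T1 and T2 had Bnip3 at 45.5 and 16.5 CPM, Ndrg1 at 186 and 46.5, and Slc16a3 at 11.9 and 21.3 CPM.

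Averaged over genes, with each gene centred on its mean over the 18 tumors on a log2 scale, the glycolytic and the HIF-induced genes were high and low in mostly the same tumors. Both means were above 0 in 9 tumors and both below 0 in 8, and JM663-T1 had them on opposite sides. Of 7 MaP R172H/- tumors 2 (YZ2 and YZ7) had both above 0, of 5 MaP R245W/- tumors 4, and of 6 MaP -/- tumors 3. The glycolytic mean was highest in JM1133 and lowest in YZ4 (-0.79), and the HIF-induced mean was lowest in JM1233 (-1.37) and YZ4 (-1.36). JM779-T1 was the highest of all tumors for 7 of the 22 glycolytic members and the lowest for 3. Both means come from the same libraries and the same scaling, so they share any error of these, and JM1233 joins its low values with the least epithelial RNA of its group (506 CPM), 8305 CPM of macrophage markers and 1585 CPM of muscle markers, whose part was not tested.

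**Figure D5:**
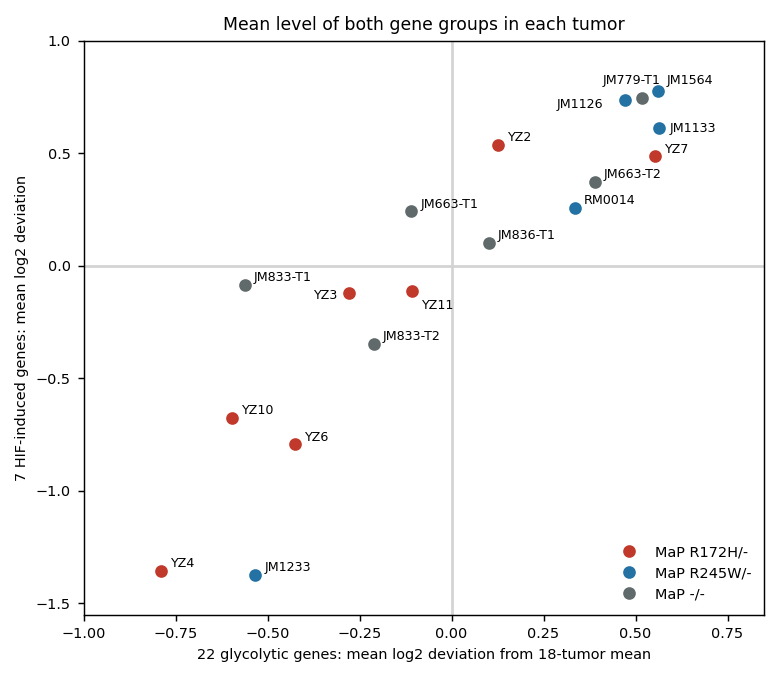
Mean log2 deviation from the 18-tumor mean of the 22 glycolytic genes (horizontal axis) and of the 7 HIF-induced genes (vertical axis) in each tumor, colored by genotype. In 9 tumors both means are above 0 and in 8 both are below, with YZ4 and JM1233 lowest and all 3 genotypes on both sides.

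Isozyme use was compared per length within each tumor, as a description. Hk2 made up 12.5% to 37.6% of Hk1 and Hk2 in MaP R172H/-, 21.4% to 62.6% in MaP R245W/- and 20.7% to 49.6% in MaP -/- tumors. Pfkl was the main phosphofructokinase by median in each group (55.4%, 60.3% and 55.6% of the 3 forms), and Pfkm reached 41.3% in JM1233 alone. Slc2a3 was the minor transporter in every tumor, with its highest share of Slc2a1 and Slc2a3 in YZ7 (29.5%).

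Beyond the members, 47 other genes of glucose metabolism and 43 other genes of the hypoxia response were listed. In MaP R172H/- against MaP -/- tumors, 1 of 40 tested glucose genes was higher and none lower, and it was Tkt (transketolase, of the pentose phosphate path), at 302 ± 73.8 CPM (SD, n = 7) against 173 ± 33.2 (SD, n = 6; log2 0.82 ± 0.19 SE, FDR = 0.0182, edgeR). Of 43 hypoxia genes 2 were higher and 1 lower. Over all genes tested in this comparison 3.67% were called higher and 4.73% lower, and the shares of both lists were near or below these. Egln2 (PHD1, the prolyl hydroxylase not induced by HIF) rose by 0.90 (FDR = 0.0038, edgeR) with no overlap between groups, and Cited2, which competes with HIF for its coactivator, rose by 1.10 (FDR = 0.0466, edgeR). Wsb1 fell by 0.89 (FDR = 0.0196, edgeR).

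Against MaP R245W/- tumors 3 of 41 glucose genes were lower in MaP R172H/- and none higher. Slc16a1 (the monocarboxylate transporter MCT1) fell by 1.21 (FDR = 0.0198), Pygl, the liver glycogen phosphorylase, by 1.65 (FDR = 0.0379), and Pygm, the muscle form, by 2.33 (FDR = 0.0433) on the log2 scale in edgeR. Pygm was at 2.04 ± 0.952 CPM (SD, n = 7) against 10.3 ± 16.6 (SD, n = 5). Skeletal muscle markers summed to 14.1 to 1585 CPM in the MaP R245W/- tumors, and the part of muscle RNA was not tested. Over all genes tested 6.49% were called lower, beside 7.32% of the glucose list and 9.30% of the hypoxia list. Of 43 hypoxia genes 4 were lower and none higher: Wsb1 by 0.91 (FDR = 0.0327), Ccng2 (cyclin G2) by 1.09 (FDR = 0.0336), Loxl2, a collagen-crosslinking oxidase, by 1.46 (FDR = 0.0388) and Higd1a, a mitochondrial hypoxia-induced protein, by 0.97 (FDR = 0.0492). For MaP R245W/- against MaP -/- none of either list was called. The smallest p were those of Fbp2 (log2 -4.46) and Tkt (0.65), and of Cited2 (0.97) and Egln2 (0.54), each at an FDR of 0.360 in edgeR.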

How the data were processed

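Total RNA of mammary tumors was made into stranded, ribosomal RNA-depleted paired-end libraries, per the methods (the labels say mRNA-Seq). The authors checked reads with FastQC 0.11.9, aligned them with STAR 2.7.10b to GRCm39 and counted genes with RSEM 1.3.3 on GENCODE annotation. The deposited values are expected counts per gene (estimated counts of RSEM, deposited as whole numbers and not normalized), which were rounded and used as such. Every column of the count table belonged to a labelled tumor. Of 57126 genes, 56620 matched GENCODE M39, and the 506 others held at most 0.0464% of the counts of a tumor.

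Groups came from the labelled genotype. Each mutant group was compared with MaP -/- in a fit of those 2 groups, and the mutant groups with each other in a fit of all 18 tumors, with edgeR 4.0.16 (R 4.3.3): filterByExpr, TMM, quasi-likelihood F-test, 2-sided, Benjamini-Hochberg adjustment over all genes tested, and a call at an FDR below 0.05. The SE was taken as the log2 fold change divided by the square root of F. Levels are CPM with TMM library sizes over all 18 tumors; per-kilobase levels use the canonical transcript. Means over genes used log2(CPM + 0.5). Alternatives, whose effect is given with the closing observations, were DESeq2 1.42.0, limma-voom (limma 3.58.1) with mouse as a random block, other filters, normalizations and samples, a muscle covariate, copies added, and each tumor left out. Scripts were tested on simulated data. Tumors of 1 mouse were treated as separate samples in the main fit, so p-values measure the spread between tumors.

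Pseudogene copies were GENCODE pseudogenes whose best megablast hit (blastn 2.17.0) among canonical coding transcripts was the member, at 90% identity or more over at least 50% of the pseudogene. Promoter windows were read from GRCm39, since the RefSeq promoter table at hand is of another build. With between 23113578 and 37365062 counts per tumor, the depth allowed every member to be tested, and its lowest level was 0.828 CPM (Ankrd37 in YZ4).

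Members, gene lists and marker lists were chosen with earlier results of these data known. All 31 members were named. Values per tumor are given for members called in any comparison, for the 3 smallest p and the 3 largest SD of log2 CPM among glycolytic and among hypoxia members, and for others ranges. Wider lists are named by calls, or by their 2 smallest p.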

Additional observations from a re-analysis of the deposited data

Results flagged for a closer look

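Within a genotype, 15 of 93 sets of levels (31 genes in 3 groups) had 1 tumor whose gap to its nearest neighbour took most of the range of the group (Dixon's test at the 95% level). A rate of about 1 flag in 20 would hold for independent sets of normally distributed values. These are CPM values not on a log scale, and the sets share tumors, so the count does not measure an excess over chance.

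YZ7 was the tumor in 6 of them, as the highest MaP R172H/- tumor for Slc2a3 (46.1 CPM, others up to 5.66), Pfkm (78.9, others up to 48.9), Eno1 (642, others up to 317), Eno2 (63.7, others up to 9.71), Pfkfb4 (47.0, others up to 19.3) and Car9 (59.5, others up to 12.4). Its epithelial marker sum of 390 CPM was the lowest of its group. YZ4 was apart for Epas1 (116 CPM, others up to 64.9).

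JM1126 was the highest MaP R245W/- tumor for Slc2a3 (26.5 CPM, others up to 11.04), Hif1a (459, others up to 200.1) and Epas1 (76.2, others up to 29.7), and JM1564 for Car9 (25.1, others up to 6.26). RM0014 was the lowest for Eno2 (1.89 CPM, others from 8.97).

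In MaP -/- tumors, JM663-T1 was highest for Pfkl (345 CPM, others up to 229), JM663-T2 for Pfkp (331, others up to 162) and JM833-T1 for Epas1 (185, others up to 82.5).

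The direct test of MaP R172H/- minus MaP R245W/- passed for Pgk1 (log2 -2.11, FDR = 0.0024), Pgam1 (log2 -1.79, FDR = 0.00087) and Ldha (log2 -0.87, FDR = 0.0490) in edgeR; instrument, read length and subtype divide these groups as genotype does.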

How the results depend on the processing

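No member was called higher in any comparison under any alternative, and none was called in MaP R245W/- against MaP -/- tumors under any. In MaP R172H/- against MaP -/-, 4 members were called lower; limma-voom with the mouse block called 2 and the muscle covariate 0, and fits without 1 tumor gave 2 to 5. In MaP R172H/- against MaP R245W/-, 3 were called lower, 5 with the 2 groups alone, 5 with the muscle covariate, and 2 to 6 without 1 tumor. The muscle covariate moved the glycolytic median of MaP R172H/- against MaP -/- from -0.30 to 0.24, and the hypoxia median of MaP R245W/- against MaP -/- from -0.03 to 0.71. Without 1 tumor these medians ran from -0.42 to 0.11 and from -0.31 to 0.33. The covariate also turned the log2 fold change of Adm in MaP R245W/- against MaP -/- to 0.34; the cause was not tested. Of 432 values of single genes under alternatives, 377 kept direction and call, 44 lost the call, 10 gained it and 1 reversed. Genes not called in the main fit could not lose a call, and where they stayed uncalled they count among the 377. The 44 losses all belong to the main calls of Pgk1, Pgam1, Pfkfb3, Bnip3 and Ldha, so the 377 are not a measure of how stable the calls were. Summing the tumors of 1 mouse changed the call of Ldha and Bnip3 between the mutant groups (FDR = 0.0545 and 0.0396 in edgeR). No paired analysis was possible because the replicate numbers follow accession order and pair no tumors across groups.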
